A study of Mus musculus with 4 samples.

Results

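The matrix metalloproteinase (Mmp), ADAMTS (Adamts) and ADAMTS-like (Adamtsl) genes were followed across the cell types of the mouse aorta. The set comprised all 46 genes, among 27734 shared by 4 single-cell libraries by Ensembl identifier, whose symbol began with Mmp and a number or with Adamts. It held 22 Mmp, 19 Adamts and 5 Adamtsl genes. Mmp1a was listed in 1 of the libraries only, with 2 unique molecular identifiers (UMIs), and was left out for that reason.

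Mmp enzymes are zinc proteases that are secreted or held at the cell membrane as inactive proforms, and between them they cleave collagens, gelatin, elastin, proteoglycans and other proteins outside the cell. Adamts enzymes are secreted zinc proteases with thrombospondin repeats; some cleave the large proteoglycans aggrecan and versican, others trim procollagens, and Adamtsl proteins share the repeats but lack the protease domain and bind fibrillin-rich matrix. In the aortic wall these genes are known for matrix turnover in aneurysm and atherosclerosis, and the tissue inhibitors of metalloproteinases (Timp) hold the enzymes in check.

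Aortic cells of mice aged 16 to 20 weeks were dissociated with collagenase and profiled with 5′ single-cell RNA sequencing. The conditional knockout (cKO) genotype was CNC-SMC-Cre;Smad4flox/flox;R26-tdT and the control genotype was CNC-SMC-Cre;R26-tdT, so all mice carried the Cre and the tdT reporter allele. From each genotype there was 1 library of the aortic arch and 1 of the descending thoracic aorta. The number of mice per library, and the promoters that drive the Cre, were not given in the sources used here. With 1 library per group no difference between libraries had a replicate check, no test was possible, and all intervals below are 95% intervals that cover counting error only.

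The arch gave 5569 cKO cells and 8046 control cells after filtering, at a median depth of 5768 and 9957 UMIs, and the descending aorta gave 5622 cKO cells and 4989 control cells, at a median depth of 6412 and 7053 UMIs. In the cKO arch 1723 of 8634 barcodes had at least 10% mitochondrial UMIs, against 86 to 362 in the other libraries, and were removed. Between 66 and 99 barcodes were shared by a pair of libraries. The feature list of the cKO arch had 28693 entries and that of each other library 32285. Comparisons with the cKO arch therefore also compare feature lists, and a difference in annotation cannot be told apart from the other differences. Whether it changed the UMIs of any member was not tested. Clustering without the 46 genes gave 34 clusters, of which 25 fell into 13 classes named from markers and 9 stayed unnamed. All 8 smooth muscle markers and all 8 fibroblast markers were detected in their class in every library. The targeted gene Smad4 was at 65.4 UMIs per 1000000 UMIs (CPM) in smooth muscle-like cells of the cKO arch and 72.1 CPM in those of the control arch, and at 88.8 and 91.2 CPM in the cKO and control descending aorta. The labels do not say which exons were deleted, and reads from the 5′ end may lie outside them, so these levels check nothing about the deletion.

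A level is given as CPM, the UMIs of a gene per 1000000 UMIs of the shared genes, summed over the cells of a class in a library. A UMI stands for 1 captured molecule whatever the length of the gene, so levels of different genes are compared per molecule. A gene is called higher or lower between libraries where the levels differed at least 2-fold and the libraries together held at least 50 UMIs of it in that class. Genes with that many UMIs are termed measured.

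Of the 46 genes, 9 lie in a row on chromosome 9 between positions 7272514 and 7699585 of GRCm38, and these include Mmp3, Mmp12 and Mmp13, on which several results below turn. The RefSeq promoter table for GRCm38.p6 had an entry for 31 of the 46 genes and for all 9 of this group, and none for the other 15, Mmp2, Adamts4 and Adamts5 among them. The letters TGANTCA, which the AP-1 factors (Fos and Jun dimers) are known to bind, were searched on both strands of the 300 bases around each start. They occurred in 7 of the 9 promoters of the group and in none of the 22 other genes with an entry. They were in 20.6% of the 34 entries for these genes and in 7.81% of all 32851 entries. All 7 also held TATAAA, the TATA box letters, which were in 32.4% of the entries for these genes and in 13.6% of all entries. The 2 without TGANTCA were Mmp8 and Mmp27. A match describes the letters and does not show that a factor binds. The following windows of 110 bases, 100 before to 10 after the annotated start on the plus strand, are shown because these genes carry the same letters but were found at very different levels and in different cells. The capitals mark TGANTCA and TATAAA. In Mmp12 the TATAAA lies at the annotated start itself, and that gene and Mmp7 have a further entry with no TGANTCA match.
Mmp3 (chr9:7445722-7445831): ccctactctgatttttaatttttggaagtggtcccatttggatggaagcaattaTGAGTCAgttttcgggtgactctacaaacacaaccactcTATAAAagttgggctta
Mmp13 (chr9:7272414-7272523): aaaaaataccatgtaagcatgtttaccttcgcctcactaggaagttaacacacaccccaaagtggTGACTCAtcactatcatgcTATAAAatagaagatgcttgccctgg
Mmp12 (chr9:7347274-7347383): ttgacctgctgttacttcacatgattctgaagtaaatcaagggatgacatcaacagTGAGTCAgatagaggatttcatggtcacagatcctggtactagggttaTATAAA
Mmp10 (chr9:7502242-7502351): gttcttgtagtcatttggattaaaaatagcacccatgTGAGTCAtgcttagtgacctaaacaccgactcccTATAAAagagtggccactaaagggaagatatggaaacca
Mmp7 (chr9:7691990-7692099): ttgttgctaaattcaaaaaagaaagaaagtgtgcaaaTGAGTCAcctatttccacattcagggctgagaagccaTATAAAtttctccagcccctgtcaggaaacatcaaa

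Among the 6 classes with at least 50 cells in every library, fibroblast-like cells led for more members than any other class did. Over all cells 37 of the 46 genes had at least 100 UMIs, and the highest mean level over the 4 libraries, among these classes, was in fibroblast-like cells for 21 of them. It was in lymphatic endothelial-like cells for 7, in mononuclear phagocyte-like cells for 4, in smooth muscle-like cells for 3, and in endothelial-like and T cell-like cells for 1 each. The genes led by fibroblast-like cells in this mean were Mmp2, Mmp3, Mmp11, Mmp14, Mmp16, Mmp19, Mmp23, Mmp27, Adamts2, Adamts3, Adamts5, Adamts10, Adamts12, Adamts15, Adamts16, Adamts17, Adamts19, Adamts20, Adamtsl2, Adamtsl3 and Adamtsl4. Some leads were narrow: Mmp11 had 18.4 CPM against 17.4 CPM in endothelial-like cells. Adamts10 had 99.5 CPM against 87.1 CPM in smooth muscle-like cells, and fibroblast-like cells led for it in no single library. Adamts20 had a mean of only 0.80 CPM. Smooth muscle-like cells led for Mmp17, Adamts6 and Adamtsl5, phagocyte-like cells for Mmp9, Mmp12, Mmp13 and Mmp25, endothelial-like cells for Mmp15 and T cell-like cells for Adamts14. The Adamts14 lead was thin, on 4 T cell-like UMIs in each arch library and 6 and 7 in the cKO and control descending aorta. In the cKO arch fibroblast-like cells led for it. Lymphatic endothelial-like cells led for Mmp28, Adamts1, Adamts4, Adamts7, Adamts8, Adamts9 and Adamtsl1, but Adamts8 rested there on 1 cell. Of the 32 genes with at least 20 UMIs in every library, 18 were led by the same 1 of these 6 classes in all 4, 13 of them by fibroblast-like cells. With the smaller classes counted too, 11 of the 32 kept 1 leading class. Fibroblast-like cells then led for 18 of 35 genes with at least 20 UMIs in the cKO arch and 19 of 38 in the control arch, but for 12 of 36 and 12 of 37 in the cKO and control descending aorta, where pericyte-like cells led for 7 genes each.

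**Figure D1:**
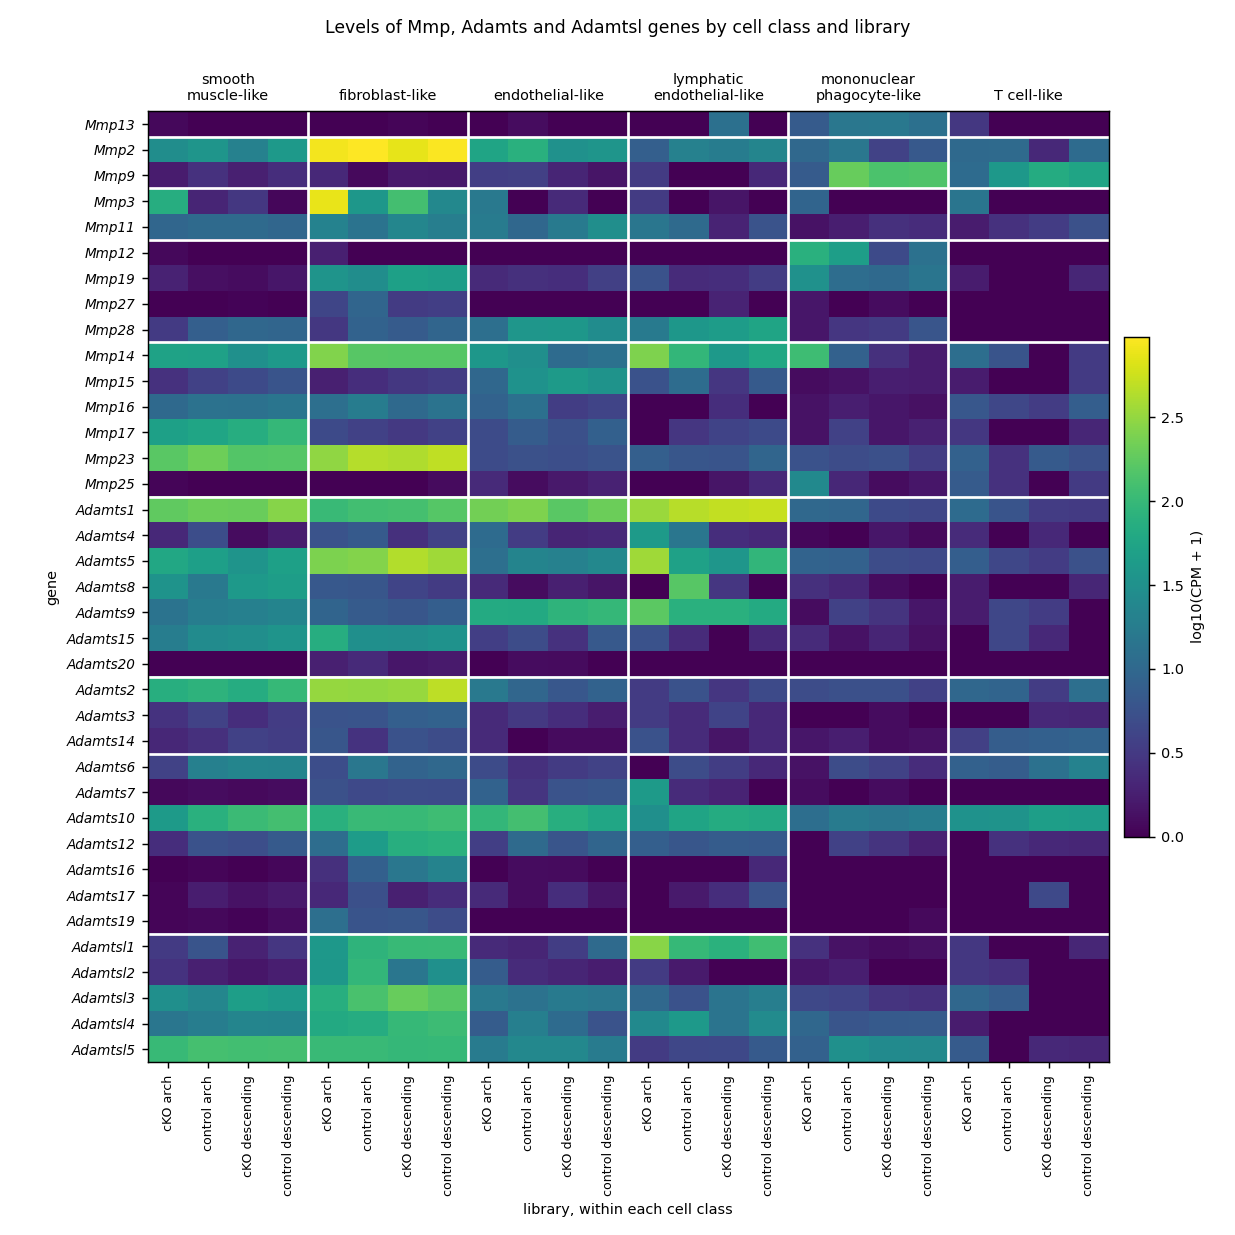
Levels of the 37 genes with at least 100 UMIs in 6 cell classes, with the 4 libraries side by side in each class, the arch pair (cKO, control) before the descending pair (cKO, control); colour gives log10 of CPM + 1. Yellow is high: Mmp2 and Mmp23 are bright across all 4 fibroblast-like columns, and Mmp3 is brightest in the fibroblast-like column of the cKO arch.

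The remaining 9 genes had under 100 UMIs. Mmp1b and Mmp20, which bears on tooth enamel, had 0 UMIs, and Mmp10, Mmp21, Mmp7 and Adamts13 had 2, 3, 4 and 6. Adamts18, Mmp8 and Mmp24 had 43, 72 and 73. Mmp10 and Mmp7 were thus almost undetected although their promoter windows hold the same letters as Mmp3.

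Mmp2, the gelatinase that clears denatured collagen and is activated at the cell surface by Mmp14, had the most UMIs of the set, 47016 in all. In fibroblast-like cells it stood at 848 CPM in the cKO arch, 958 CPM in the control arch, 735 CPM in the cKO descending aorta and 920.2 CPM in the control descending aorta. The 4 libraries thus lay within a narrow range, and the highest was the control arch. In smooth muscle-like cells Mmp2 was at 28.1 CPM in the cKO arch and 34.7 CPM in the control arch, and at 19.2 CPM in the cKO descending aorta and 38.9 CPM in the control descending aorta. The descending pair had a log2 ratio of -1.02 (interval -1.22 to -0.82), the only smooth muscle call there; it lies just past the 2-fold limit and is lost with median-of-ratios scaling (-0.99). Per cell, these smooth muscle-like levels were 4.18% and 5.98% of the fibroblast-like ones in the cKO and control descending aorta, and T cell-like cells had 1.20 and 10.1 CPM.

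Mmp9, the other gelatinase, is made by neutrophils and macrophages. In mononuclear phagocyte-like cells it was at 6.25 CPM in the cKO arch, 194.0 CPM in the control arch, 137 CPM in the cKO descending aorta and 143 CPM in the control descending aorta. The cKO arch was far below the other 3 libraries, with a log2 ratio to the control arch of -4.94 (interval -5.42 to -4.53). Over the whole cKO arch the gene was held elsewhere, since the 424 neutrophil-like cells of that library carried 1503 UMIs at 1763 CPM, and no other library had 50 neutrophil-like cells. T cell-like cells had 10.1 CPM in the cKO arch, 37.5 CPM in the control arch, 67.4 CPM in the cKO descending aorta and 54.8 CPM in the control descending aorta. Smooth muscle-like cells had at most 1.69 CPM.

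The collagenases cut the triple helix of fibrillar collagens. Mmp13 was found in mononuclear phagocyte-like cells at 6.25 CPM in the cKO arch and 14.4 CPM in the control arch, and at 14.8 CPM in the cKO descending aorta and 11.4 CPM in the control descending aorta. At most 2 UMIs of it per library lay in smooth muscle-like, in fibroblast-like or in endothelial-like cells. Mmp8, the neutrophil collagenase, was at 24.6 CPM in neutrophil-like cells of the cKO arch on 21 UMIs.

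Mmp3, stromelysin 1, cleaves proteoglycans and non-fibrillar collagens and activates other Mmp proforms. It had 10843 UMIs in all, 8651 of them in the cKO arch. In fibroblast-like cells it was at 754 CPM in the cKO arch, 37.3 CPM in the control arch, 123 CPM in the cKO descending aorta and 23.7 CPM in the control descending aorta. Both cKO libraries were above both control libraries, with log2 ratios of 4.34 (interval 4.20 to 4.47) in the arch and 2.38 (interval 2.17 to 2.60) in the descending aorta. In smooth muscle-like cells it was at 71.9 CPM in the cKO arch, 1.03 CPM in the control arch, 2.04 CPM in the cKO descending aorta and 0.13 CPM in the control descending aorta. The arch ratio was 6.11 on the log2 scale (interval 5.71 to 6.58), the furthest from 0 of any member in these cells, on 833 cKO and 48 control UMIs, of which 15 of the control's came from 1 cell. In the descending smooth muscle-like cells 32 and 2 UMIs were too few for a call.

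The 3 large fibroblast-like clusters carried different amounts of Mmp3. The cluster led by Hhip and Lum had 1289 CPM in the cKO arch, 60.5 CPM in the control arch, 433 CPM in the cKO descending aorta and 67.3 CPM in the control descending aorta. The cluster led by Cilp had 1089, 47.6, 114 and 20.9 CPM in the same order of libraries, and the Pi16 cluster, of the adventitial type, had 88.0, 5.81, 22.7 and 8.45 CPM. Within each of these clusters the cKO library was above the control library of its region. Of smooth muscle-like cells thinned to 3000 UMIs, 7.14% (interval 5.57 to 9.0, Clopper-Pearson) held a UMI of Mmp3 in the cKO arch, against 0.24% (interval 0.10 to 0.49) in the control arch. Of fibroblast-like cells the share was 30.8% in the cKO arch, 3.64% in the control arch, 9.83% in the cKO descending aorta and 3.85% in the control descending aorta.

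Free RNA in droplets gave a background for Mmp3 in the cKO arch. T cell-like cells, which should lack the gene, were at 13.5 CPM there, and 3.33% of them held a UMI after thinning (4.73% before). T cell-like cells of the other libraries had 0 UMIs in 129, 169 and 171 cells, which allows a share of up to 2.82%, 2.16% and 2.13% (exact upper bounds). The thinned smooth muscle-like share given above lay above the thinned T cell-like share of the same library, which came from 240 cells. Whether the thinned shares differ was not tested. Before thinning 12.3% of smooth muscle-like cells held a UMI, but the median depths of the 2 classes were then 10846 and 3214 UMIs. Mmp3 in phagocyte-like cells of the cKO arch, 63 UMIs at 8.20 CPM against 0 UMIs in the control arch, was below the T cell-like level and is read as background, although it passed the call rule.

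**Figure D2:**
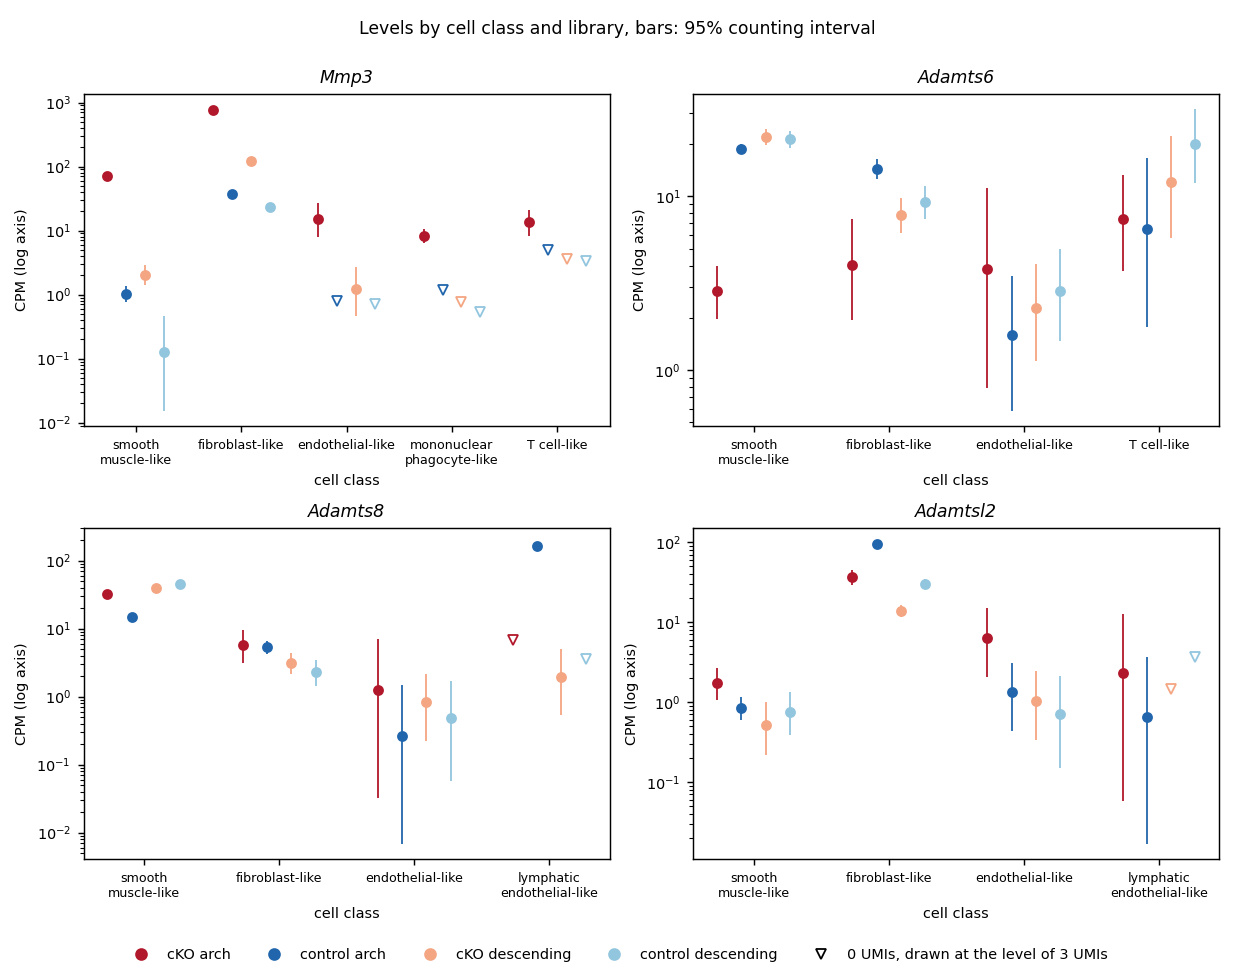
Levels of Mmp3, Adamts6, Adamts8 and Adamtsl2 in CPM on a log axis, by cell class, with the arch pair (cKO, control) left of the descending pair (cKO, control); bars are 95% counting intervals and an open triangle marks 0 UMIs, drawn at the level of 3 UMIs. Mmp3 in the fibroblast-like cells of the cKO arch stands at 754 CPM, and the high Adamts8 point in the lymphatic endothelial-like cells of the control arch rests on 244 UMIs of 1 cell.

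Mmp11, stromelysin 3, was low and widespread. Fibroblast-like cells had 20.2 and 12.7 CPM in the cKO and control arch, and 22.6 and 17.9 CPM in the cKO and control descending aorta. Endothelial-like cells had 9.01 CPM in the control arch and 28.4 CPM in the control descending aorta, a log2 ratio of -1.64 (interval -2.25 to -1.10). Pericyte-like cells, which reached 50 cells in the descending libraries only, were higher than either class, at 99.7 CPM in the cKO and 73.1 CPM in the control.

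Mmp12, the macrophage elastase, was a phagocyte gene and stood in phagocyte-like cells at 76.4 CPM in the cKO arch, 45.6 CPM in the control arch, 3.64 CPM in the cKO descending aorta and 11.8 CPM in the control descending aorta. Both arch libraries were above both descending libraries. Few cells carried the control signal: 60 of 117 UMIs in the control arch and 40 of 67 in the control descending aorta came from 1 cell each. Without those cells the control levels were 22.3 CPM in the arch and 4.77 CPM in the descending aorta.

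Mmp19 was made by fibroblast-like cells at 33.6 and 27.8 CPM in the cKO and control arch, and at 48.1 and 45.1 CPM in the cKO and control descending aorta. Phagocyte-like cells had 31.6 CPM in the cKO arch against 10.5 CPM in the control arch, a log2 ratio of 1.56. Mmp27 was found almost only in fibroblast-like cells, at 3.24 CPM in the cKO arch and 8.39 CPM in the control arch, and at 2.32 and 2.62 CPM in the cKO and control descending aorta. Mmp28, epilysin, was made by both kinds of endothelium. Endothelial-like cells had 11.4 CPM of Mmp28 in the cKO arch, 36.0 CPM in the control arch, 36.6 CPM in the cKO descending aorta and 27.2 CPM in the control descending aorta, and lymphatic endothelial-like cells had 16.1, 37.3, 43.0 and 54.3 CPM in the same order. The cKO arch was lowest in both classes.

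Mmp14, MT1-MMP, is the membrane-bound collagenase that activates Mmp2. In fibroblast-like cells it was at 259 CPM in the cKO arch, 158 CPM in the control arch, 156 CPM in the cKO descending aorta and 155 CPM in the control descending aorta. In phagocyte-like cells the cKO arch had 112 CPM, against 7.40 CPM in the control arch, 1.56 CPM in the cKO descending aorta and 0.70 CPM in the control descending aorta. The arch log2 ratio there was 3.89 (interval 3.27 to 4.66), on 862 UMIs spread over 384 cells of the cKO arch. Lymphatic endothelial-like cells had 253 and 92.2 CPM of Mmp14 in the cKO and control arch, with 56 cells in the cKO arch.

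Mmp17, MT4-MMP, was the smooth muscle member of the membrane-bound group. Smooth muscle-like cells had 48.2 CPM in the cKO arch, 56.4 CPM in the control arch, 71.7 CPM in the cKO descending aorta and 95.4 CPM in the control descending aorta, while fibroblast-like cells had at most 3.64 CPM. Both descending libraries lay above both arch libraries, but by less than 2-fold. Schwann-like cells of the descending aorta carried more Mmp17 than smooth muscle, 160 CPM in the cKO and 135 CPM in the control, on 44 and 39 UMIs.

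Mmp15, MT2-MMP, was found in endothelial-like, Schwann-like and pericyte-like cells. Endothelial-like cells had 8.89 CPM in the cKO arch on 7 UMIs, 32.1 CPM in the control arch, 41.4 CPM in the cKO descending aorta and 33.2 CPM in the control descending aorta. Schwann-like cells were highest, with 251 CPM in the cKO and 222 CPM in the control descending aorta. Pericyte-like cells came next there, above endothelial-like cells, at 72.1 CPM in the cKO and 45.7 CPM in the control. Mmp16, MT3-MMP, was spread over smooth muscle-like and fibroblast-like cells at 9.40 to 16.7 CPM in all libraries. Mmp23, which has a membrane anchor at its amino end, was the second most abundant member with 43286 UMIs. It stood at 303 and 441 CPM in fibroblast-like cells of the cKO and control arch and at 419 and 499.5 CPM in those of the cKO and control descending aorta. Smooth muscle-like cells had it at 163 and 208 CPM in the cKO and control arch and at 150.2 and 156 CPM in the cKO and control descending aorta, and no pair of libraries differed 2-fold in either class. Mesothelial-like cells matched fibroblast-like cells for Mmp23, at 461 CPM in the control arch and 400.1 and 428 CPM in the cKO and control descending aorta. Mmp25, a leukocyte enzyme anchored by a lipid tail, was at 24.9 CPM in phagocyte-like cells of the cKO arch, against 1.17 CPM in the control arch, with 191 and 3 UMIs and a log2 ratio of 4.19 (interval 2.84 to 6.70).

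Among the proteoglycan-cleaving Adamts genes, Adamts1 was the most widely made. Lymphatic endothelial-like cells had 338 CPM in the cKO arch, 454 CPM in the control arch, 504 CPM in the cKO descending aorta and 545 CPM in the control descending aorta. Smooth muscle-like cells had 179 and 204 CPM in the cKO and control arch, and 199 and 276 CPM in the cKO and control descending aorta, the highest level of any member in that class except in the control arch, where Mmp23 was at 208 CPM. Endothelial-like cells had 222 and 250.1 CPM of Adamts1 in the cKO and control arch, and 165 and 203 CPM in the cKO and control descending aorta. In each of these 3 classes and in both regions the cKO level lay below the control level, by less than 2-fold.

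Adamts5, an aggrecanase, was a fibroblast gene, at 246 and 267 CPM in fibroblast-like cells of the cKO and control arch and at 430.1 and 364 CPM in those of the cKO and control descending aorta. The Pi16 cluster held the most, 297 CPM in the cKO arch, 625 CPM in the control arch, 605 CPM in the cKO descending aorta and 563 CPM in the control descending aorta. The smooth muscle-like level of Adamts5 was 59.7 and 47.3 CPM in the cKO and control arch, and 34.1 and 47.9 CPM in the cKO and control descending aorta. Lymphatic endothelial-like cells of the cKO arch reached 363 CPM, against 49.7 CPM in the control arch, on 56 cells of which 1 held 33 of the 158 UMIs.

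Adamts4, the other main aggrecanase, was scarce. In smooth muscle-like cells it was at 1.21 CPM in the cKO arch, 4.07 CPM in the control arch, 0.25 CPM in the cKO descending aorta and 0.69 CPM in the control descending aorta, so that the control arch was highest. Adamts8 was made by smooth muscle-like cells at 32.7 CPM in the cKO arch, 15.0 CPM in the control arch, 39.2 CPM in the cKO descending aorta and 45.1 CPM in the control descending aorta. The control arch was lowest, and the cKO arch was higher than it by a log2 ratio of 1.13 (interval 0.95 to 1.31), a call lost with stricter cell filters (0.98) and in the single largest cluster (0.72). Its apparent lead in lymphatic endothelial-like cells of the control arch, 162 CPM, came from 4 cells, 1 of which held 244 of 248 UMIs, and was 2.70 CPM without that cell.

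Adamts9, which cleaves versican, was endothelial: endothelial-like cells had 64.8 and 63.1 CPM in the cKO and control arch and 86.0 and 96.2 CPM in the cKO and control descending aorta, and lymphatic endothelial-like cells had 170.1 and 77.2 CPM in the cKO and control arch and 77.6 and 66.4 CPM in the cKO and control descending aorta. Adamts15 was at 70.5 CPM in fibroblast-like cells of the cKO arch, against 29.2 CPM in the control arch, and at 28.5 and 32.4 CPM in the cKO and control descending aorta. The cKO arch stood apart from the other 3 libraries, with a log2 ratio to the control arch of 1.27. It was above the control arch in each of the 3 large fibroblast-like clusters, least so in the Pi16 cluster at 48.5 against 30.5 CPM. Pericyte-like cells of the descending aorta had still more Adamts15, 110.3 CPM in the cKO and 105 CPM in the control. Adamts20 was a Schwann-like gene, with 80.0 CPM in the cKO and 177 CPM in the control descending aorta on 22 and 51 UMIs, and at most 1.24 CPM in any of the 6 classes.

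The procollagen N-proteinases remove the amino propeptide of fibrillar procollagens. Adamts2 was the abundant one, at 326 and 316 CPM in fibroblast-like cells of the cKO and control arch, and at 335 and 485 CPM in those of the cKO and control descending aorta. Smooth muscle-like cells had 73.8 and 84.8 CPM of Adamts2 in the cKO and control arch, and 69.9 and 99.6 CPM in the cKO and control descending aorta. Adamts3 and Adamts14 were low, with at most 7.74 and 7.82 CPM in any of the 6 classes.

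Adamts6 and Adamts10, which bear on fibrillin microfibrils, were both lower in smooth muscle-like cells of the cKO arch than in the other 3 libraries. Adamts6 stood at 2.85 CPM in the cKO arch, 18.7 CPM in the control arch, 21.9 CPM in the cKO descending aorta and 21.3 CPM in the control descending aorta. Its log2 ratio in the arch was -2.69 (interval -3.26 to -2.21). The cKO arch smooth muscle-like level lay below the T cell-like level of 7.44 CPM (11 UMIs) in that library. Per cell, smooth muscle-like and T cell-like cells there held 0.034 and 0.026 UMIs. T cell-like cells held 4 UMIs of Adamts6 in the control arch, and 10 and 18 in the cKO and control descending aorta. Most cKO arch smooth muscle-like cells, 792 of 981, fell into 1 cluster, and within that cluster Adamts6 was at 2.04 CPM in the cKO arch, 11.0 CPM in the control arch, 5.55 CPM in the cKO descending aorta and 4.95 CPM in the control descending aorta. The descending libraries too were therefore low in those cells. Adamts10 was at 40.9 CPM in the cKO arch, 77.7 CPM in the control arch, 106 CPM in the cKO descending aorta and 124 CPM in the control descending aorta, an arch log2 ratio of -0.93 (interval -1.07 to -0.79), under the 2-fold limit. Endothelial-like cells had 94.0 and 122 CPM of Adamts10 in the cKO and control arch and 73.0 and 56.6 CPM in the cKO and control descending aorta, and T cell-like cells had between 32.5 and 45.7 CPM.

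Adamts12, which degrades cartilage oligomeric matrix protein (Comp) with its relative Adamts7, was lower in the cKO arch than elsewhere. Fibroblast-like cells had 10.5 CPM in the cKO arch, 43.0 CPM in the control arch, 73.4 CPM in the cKO descending aorta and 79.2 CPM in the control descending aorta, and the arch log2 ratio was -2.00 (interval -2.65 to -1.47). In the Cilp cluster, which held most of it, the levels were 19.4, 102, 128 and 122 CPM in the same order. Pericyte-like cells of the descending aorta had 134 CPM in the cKO and 160 CPM in the control. Adamts7 was low, at most 4.45 CPM in fibroblast-like cells. It was higher in pericyte-like cells of the descending aorta, at 19.1 CPM in the cKO and 18.3 CPM in the control, and in lymphatic endothelial-like cells of the cKO arch, at 41.4 CPM on 18 UMIs.

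Adamts16 sat in the Pi16 fibroblast-like cluster and almost nowhere else: in all fibroblast-like cells it was at 1.62 CPM in the cKO arch on 4 UMIs, 7.21 CPM in the control arch, 14.2 CPM in the cKO descending aorta and 20.4 CPM in the control descending aorta. Adamts17 and Adamts19 were at most 4.35 and 11.3 CPM in fibroblast-like cells and had other sources. Adamts17 was higher in thymocyte-like cells of the control arch (6.61 CPM), pericyte-like cells of the cKO descending aorta (10.6 CPM) and Schwann-like cells of the control descending aorta (27.7 CPM). Few UMIs set each of these levels, with 0.020, 0.042 and 0.133 UMIs per cell in 199, 118 and 60 cells. The class that led thus differed between these libraries. An unnamed control arch cluster led by Msx2 and Frzb had 4.53 CPM of Adamts17 on 42 UMIs. Adamts19 was led by fibroblast-like cells in both arch libraries and by mesothelial-like cells in the descending ones, at 6.25 CPM in the cKO and 14.3 CPM in the control.

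Of the Adamts-like genes, Adamtsl5 was shared about evenly by smooth muscle-like cells, at 99.9 and 124 CPM in the cKO and control arch and 119 and 123 CPM in the cKO and control descending aorta, and fibroblast-like cells, at 94.6 to 105 CPM. Adamtsl3 was at 73.7 and 133 CPM in fibroblast-like cells of the cKO and control arch and at 192 and 161 CPM in those of the cKO and control descending aorta. Adamtsl4 was at 64.0 and 69.7 CPM in fibroblast-like cells of the cKO and control arch and at 99.0 and 110.0 CPM in those of the cKO and control descending aorta. None of these 3 differed 2-fold between genotypes in fibroblast-like cells.

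Adamtsl2, which binds fibrillin and latent TGF-beta binding protein, differed both by region and by genotype. Fibroblast-like cells had 36.4 CPM in the cKO arch, 93.8 CPM in the control arch, 13.8 CPM in the cKO descending aorta and 30.4 CPM in the control descending aorta. Arch exceeded descending in both genotypes, with log2 ratios of 1.40 (interval 1.00 to 1.79) in the cKO and 1.62 (interval 1.44 to 1.82) in the control, and cKO lay below control in both regions, with log2 ratios of -1.36 in the arch and -1.13 (interval -1.44 to -0.84) in the descending aorta. The Hhip and Lum cluster was the richest, at 80.2 CPM in the cKO arch, 177 CPM in the control arch, 47.3 CPM in the cKO descending aorta and 119 CPM in the control descending aorta. In that cluster too, cKO lay below control in both regions and arch above descending in both genotypes.

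Adamtsl1, punctin, had several sources. Lymphatic endothelial-like cells had 283 CPM in the cKO arch, 98.1 CPM in the control arch, 79.6 CPM in the cKO descending aorta and 115 CPM in the control descending aorta. Fibroblast-like cells had 38.1 and 85.7 CPM in the cKO and control arch and 99.8 and 104 CPM in the cKO and control descending aorta. Mesothelial-like cells had 130.3 CPM in the control arch and 197 and 220.3 CPM in the cKO and control descending aorta, while smooth muscle-like cells had at most 4.97 CPM.

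Counted over the set, the arch differed between genotypes in more members than the descending aorta did. In the arch, cKO against control, 27 of the 46 were measured in smooth muscle-like cells, and 3 were higher and 6 lower, beside 10.6% of all measured genes called in either direction. The higher ones were Mmp3, Adamts8 and Adamtsl2 (1.73 CPM against 0.84 CPM, log2 ratio 1.07, and 0.91 without the cell with most of its UMIs), and the lower ones were Adamts6, Adamts4 (log2 ratio -1.71), Adamts12 (1.47 against 4.67 CPM, -1.63), Mmp28 (2.24 against 7.04 CPM, -1.63), Mmp9 (0.69 against 1.69 CPM, -1.21) and Adamtsl1 (2.24 against 4.97 CPM, -1.12). A class under 10% of the leading class by UMIs per cell is read as near the level that free RNA can give, and 3 of the 9 were under it in both libraries. Smooth muscle-like cells had 0.23% and 1.70% of the leading level in the cKO and control arch for Mmp9, 1.21% and 4.68% for Adamtsl1, and 6.93% and 1.53% for Adamtsl2. T cell-like cells were above them for Mmp9, at 10.1 CPM in the cKO and 37.5 CPM in the control arch, and for Adamtsl2, at 2.03 CPM on 3 UMIs and 1.63 CPM on 1 UMI. For Adamtsl1 T cell-like cells had 3 UMIs (cKO arch) and 0 UMIs (control arch). The median log2 ratio was -0.35 over the measured members and -0.12 over all measured genes. The Adamtsl1 direction was reversed when cells had to pass stricter filters (0.15) or when the 1 largest cluster was compared alone (1.48, with 104 cKO cells). Beside these results, the summed level of the 8 fibroblast markers in smooth muscle-like cells was 941 CPM in the cKO and 955 CPM in the control arch, that of 5 neutrophil markers was 16.3 and 0.81 CPM, and that of 8 macrophage markers 40.4 and 13.1 CPM. The 8 endothelial markers, 7 of them detected in the cKO, summed to 38.2 and 84.0 CPM, lower in the cKO as were Mmp28, Adamts4 and Adamtsl1. Lymphatic endothelial-like cells led for these 3 genes among the 6 larger classes. The 6 lymphatic endothelial markers themselves summed to 2.93 CPM in the cKO and 3.45 CPM in the control arch. The part of these markers in the results was not tested. The largest cluster of this class also differed between the libraries: it held 80.7% of the cKO cells and, being another cluster, 68.1% of the control cells.

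In fibroblast-like cells of the arch 30 were measured, and 3 were higher and 8 lower in the cKO, beside 12.0% of all measured genes. The higher ones were Mmp3, Adamts15 and Adamts19 (11.3 against 4.97 CPM, log2 ratio 1.21). The lower ones were Adamts12, Adamts16 (-1.99), Mmp28 (2.02 against 7.71 CPM, -1.80), Adamts6 (4.05 against 14.4 CPM, -1.76), Adamts17, Adamtsl2, Mmp27 and Adamtsl1. Markers of other cell types differed in these cells too, with their part in the calls not tested. The 8 endothelial markers summed to 32.8 CPM in the cKO and 139 CPM in the control arch, the 8 smooth muscle markers to 853 and 1651 CPM, the 5 neutrophil markers to 58.7 and 0.12 CPM, and the 6 mesothelial markers to 0 and 20.0 CPM. In endothelial-like cells 12 were measured, none was higher and 3 were lower, beside 7.87% of all measured genes: Mmp15 (log2 ratio -1.76), Mmp28 (-1.58) and Adamtsl4 (6.35 against 18.3 CPM, -1.40). Adamts5 and Mmp16 followed there at -0.82 and -0.51, with intervals that include 0. Those 3 calls rested on 5 to 9 UMIs in 145 cells of the cKO arch. In phagocyte-like cells 13 were measured, and 4 were higher and 3 lower, beside 16.8% of all measured genes. The higher ones were Mmp14, Mmp25, Mmp19 and Mmp3, the last read as background above, and the lower ones were Mmp9, Mmp13 and Adamtsl5 (7.42 against 30.0 CPM, log2 ratio -2.01).

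In the descending aorta, cKO against control, 1 of 22 measured members was lower in smooth muscle-like cells, Mmp2, and none higher, beside 1.27% of all measured genes. The next furthest were Adamts3 at -0.70, Adamts12 at -0.52, Adamts2 at -0.51, Adamts5 at -0.49, Adamts1 at -0.47, Mmp15 at -0.46, Mmp17 at -0.41, Mmp14 at -0.38 and Adamtsl3 at 0.27, none of them called. The median was -0.21 over the measured members and -0.04 over all measured genes. In fibroblast-like cells 27 were measured, with Mmp3 higher and Adamtsl2 lower, beside 1.25% of all genes, and Adamts2 (-0.53), Adamts16 (-0.53) and Adamts19 (0.44) came next without a call. In endothelial-like cells 16 were measured, with Adamtsl4 (10.1 against 4.77 CPM, 1.07) higher and Adamtsl1 (2.48 against 9.79 CPM, -1.94) lower, beside 2.78% of all genes. Mmp11 (-0.85), Mmp17 (-0.71) and Adamts12 (-0.69) followed uncalled. By UMIs per cell, endothelial-like cells were under 10% of the leading class for Adamtsl4 and Adamtsl1 in both libraries. Both calls thus lay near the level that free RNA can give. T cell-like cells held 0 UMIs of Adamtsl4 in both libraries, and 0 (cKO) and 1 (control) of Adamtsl1. In phagocyte-like cells 7 were measured and Mmp12 was lower at -1.66, on 14 and 67 UMIs of which 40 of the control's lay in 1 cell, beside 3.77% of all genes. Mmp19 (-0.51), Mmp13 (0.37), Adamts10 (-0.22) and Mmp9 (-0.07) were not called.

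**Figure D3:**
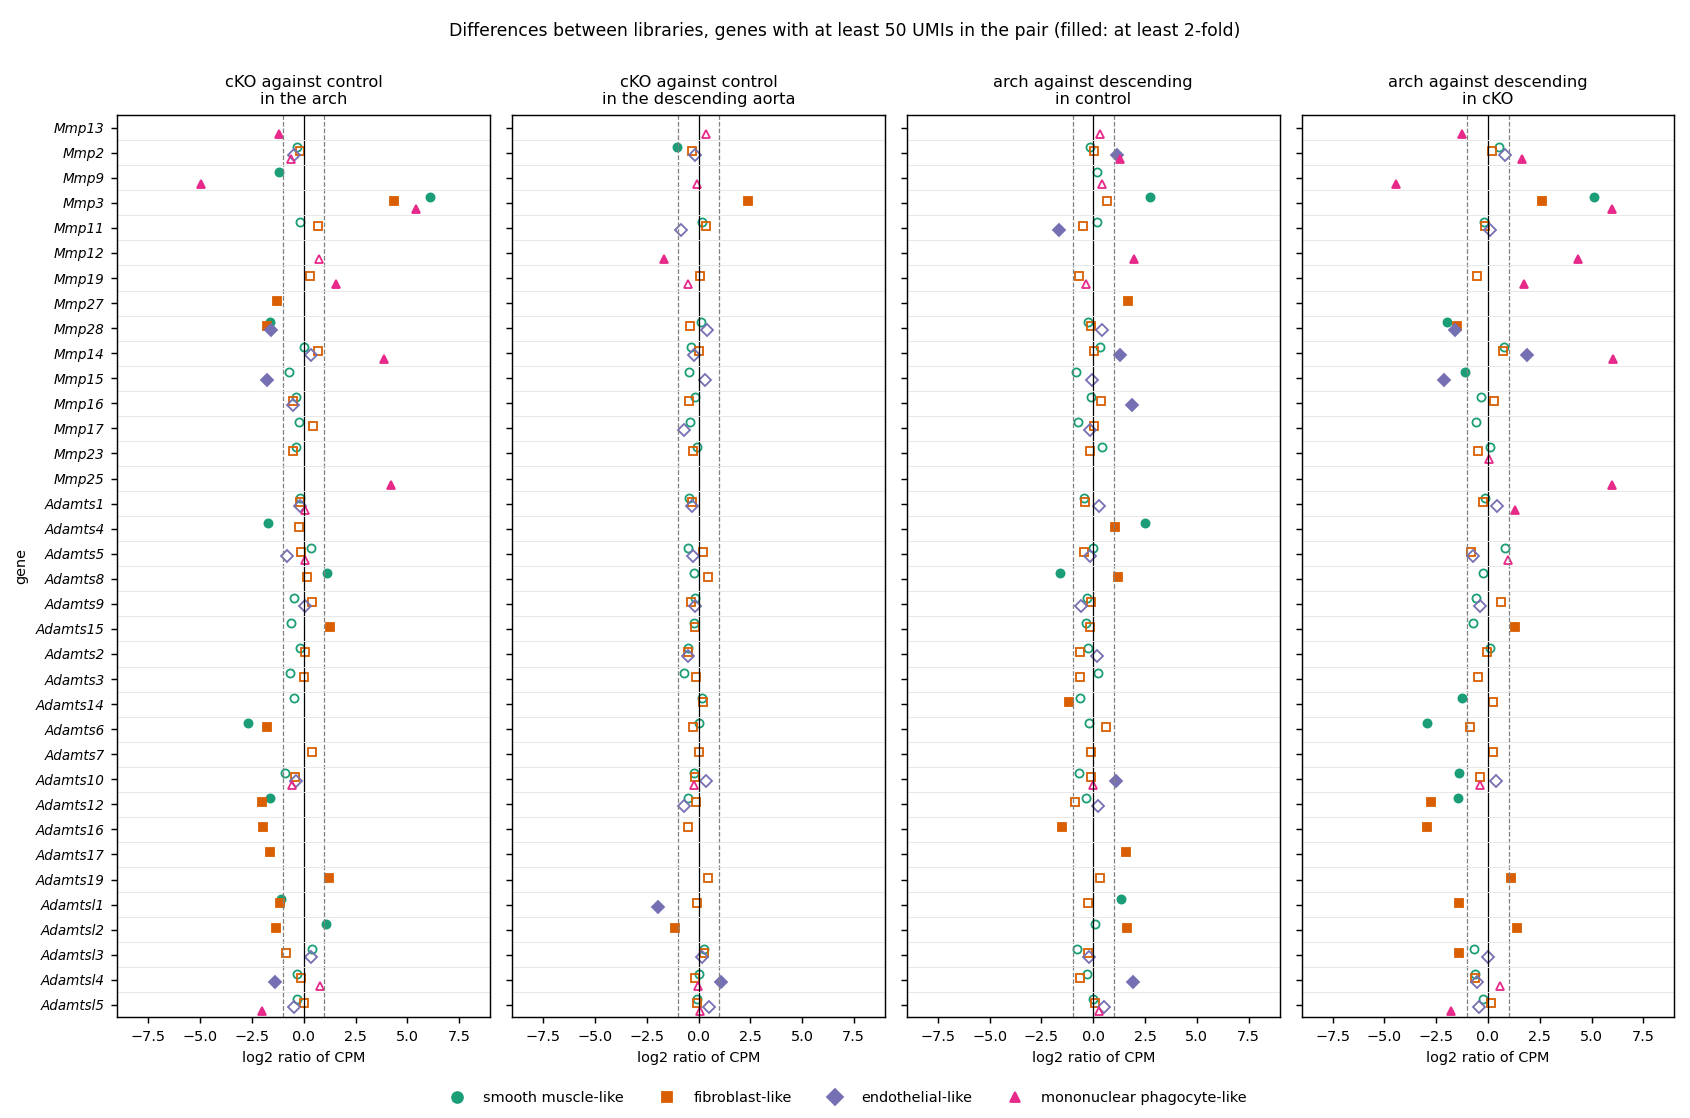
Log2 ratio of each measured member in 4 cell classes for cKO against control in each region and for arch against descending aorta in each genotype; filled points differ at least 2-fold, the limit that the dashed lines mark, and no error is drawn. The arch genotype panel has Mmp3 at 6.11 and Adamts6 at -2.69 in smooth muscle-like cells, while most points of the descending genotype panel lie between the dashed lines.

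In controls, arch against descending aorta, 27 were measured in smooth muscle-like cells, and 3 were higher and 1 lower in the arch, beside 5.57% of all measured genes. Mmp3 (48 and 2 UMIs, log2 ratio 2.72), Adamts4 (2.49) and Adamtsl1 (4.97 against 1.96 CPM, 1.33) were higher and Adamts8 (-1.59) lower. Mmp15 (-0.84), Adamtsl3 (22.6 against 38.6 CPM, -0.77), Mmp17 (-0.76), Adamts10 (-0.67), Adamts14 (-0.63) and Adamts1 (-0.43) followed, all lower in the arch and none called. Per cell, smooth muscle-like Mmp3 was 4.73% (arch) and 0.755% (descending) of the leading level, and Adamtsl1 4.68% and 1.02%. Both genes thus lay near the level that free RNA can give. T cell-like cells held 0 UMIs of Mmp3 in both libraries, and 0 (arch) and 1 (descending) of Adamtsl1. In fibroblast-like cells 31 were measured, and 5 were higher and 2 lower, beside 7.67% of all genes. Mmp27 (1.66), Adamtsl2 (1.62), Adamts17 (4.35 against 1.42 CPM, 1.58), Adamts8 (5.28 against 2.29 CPM, 1.18) and Adamts4 were higher, and Adamts16 (-1.50) and Adamts14 lower. In endothelial-like cells 16 were measured, and 5 were higher and 1 lower, beside 10.5% of all genes. Adamtsl4 (18.3 against 4.77 CPM, 1.91), Mmp16 (11.7 against 3.10 CPM, 1.87), Mmp14 (29.7 against 11.9 CPM, 1.31), Mmp2 (77.4 against 34.9 CPM, 1.15) and Adamts10 were higher and Mmp11 lower. Mmp2 had 292 UMIs in 691 arch cells and 146 UMIs in 807 descending cells. Per cell that was under 10% of the leading fibroblast-like levels of 8.05 and 8.44 UMIs, near what free RNA can give, though above the T cell-like levels given below. The 8 fibroblast markers summed to 942 CPM in the endothelial-like arch cells and 305 CPM in the descending ones, and their part in these results was not tested. In phagocyte-like cells 7 were measured and Mmp12 (1.95) and Mmp2 (14.03 against 5.81 CPM, 1.27) were higher, beside 5.91% of all genes. T cell-like cells had 9.78 CPM of Mmp2 in the control arch (6 UMIs) and 10.1 CPM in the control descending aorta (9 UMIs), so the descending phagocyte-like level lay below this background and the arch level had an interval, 9.82 to 19.4 CPM, that began at it. Mmp9 (0.44), Mmp13 (0.34) and Mmp19 (-0.33) were not called.

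In cKO mice, arch against descending aorta, 22 were measured in smooth muscle-like cells, and 1 was higher and 6 lower in the arch, beside 9.53% of all measured genes. Mmp3 was higher at 5.12, and Adamts6 (-2.92), Mmp28 (2.24 against 9.04 CPM, -1.99), Adamts12 (-1.47), Adamts10 (-1.38), Adamts14 (-1.25) and Mmp15 (-1.12) were lower. Adamts5 (0.81), Mmp14 (0.75) and Adamts15 (-0.74) were not called. The 7 calls became 4 at a minimum of 100 UMIs, 2 in the single largest cluster, 11 with no doublets removed and 13 at 1.5-fold. Most of these cells lay in different clusters, 792 of 981 arch cells in cluster 4 and 733 of 1340 descending cells in cluster 1. In fibroblast-like cells 26 were measured, and 4 were higher and 5 lower, beside 11.1% of all genes. Mmp3 (2.61), Adamtsl2 (1.40), Adamts15 and Adamts19 were higher, and Adamts16 (-2.96), Adamts12 (-2.77), Mmp28 (-1.50), Adamtsl1 and Adamtsl3 lower. In endothelial-like cells 12 were measured, with Mmp14 (36.9 against 10.1 CPM, 1.87) higher and Mmp15 (-2.12) and Mmp28 (-1.60) lower, beside 11.7% of all genes, and Mmp2 (0.83) and Adamts5 (-0.71) uncalled. Mmp14 had 29 UMIs in 145 arch cells and 49 UMIs in 972 descending cells. Per cell that was under 10% of the leading fibroblast-like levels of 2.088 and 1.145 UMIs, near what free RNA can give. The 8 fibroblast markers summed to 827 CPM in the endothelial-like arch cells and 290.5 CPM in the descending ones, and their part was not tested. In phagocyte-like cells 14 were measured, and 7 were higher and 3 lower, beside 17.5% of all genes. Mmp14 (6.05), Mmp25 (191 and 1 UMIs, 6.0), Mmp12 (4.34), Mmp3, Mmp2, Mmp19 and Adamts1 were higher and Mmp9 (-4.44), Mmp13 and Adamtsl5 lower. Mmp3, Mmp2 and Adamts1 stood at 8.20, 9.11 and 9.11 CPM in these cKO arch cells, below the T cell-like levels of 13.5, 9.47 and 10.1 CPM in that library, and are read as background. The 4 comparisons share libraries with each other and are not independent.

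The phagocyte-like class itself was made up differently in the cKO arch. A cluster led by Ccl12 and Ly6c2 held 860 of its 1125 phagocyte-like cells, against 34 of 347 in the control arch, 62 of 518 in the cKO descending aorta and 37 of 550 in the control descending aorta. A cluster led by Folr2 and C1q genes held 99 cells in the cKO arch, 243 in the control arch, 348 in the cKO descending aorta and 323 in the control descending aorta. Members divided between these clusters. In the Folr2 cluster Mmp9 was at 28.9 CPM in the cKO arch, 275 CPM in the control arch, 231 CPM in the cKO descending aorta and 295 CPM in the control descending aorta, so it was lower in the cKO arch within that cluster too. In the Ccl12 cluster of the cKO arch Mmp9 was at 4.70 CPM, Mmp14 at 148 CPM and Mmp12 at 85.6 CPM.

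Mmp14 in the Folr2 cluster was at 17.9 CPM in the cKO arch and 6.91 CPM in the control arch, a far smaller difference than over the whole class. Mmp25 was concentrated in the cluster led by Cd209a and MHC class II genes, 86.6 CPM in the cKO arch against 9.97 CPM in the Ccl12 cluster of that library. Mmp12 in that cluster was at 83.4 CPM in the cKO arch, 35.8 CPM in the control arch, 11.3 CPM in the cKO descending aorta and 22.1 CPM in the control descending aorta. Adamtsl5 in the Folr2 cluster was at 26.2, 42.0, 42.6 and 43.1 CPM in the same order. An unnamed cluster of 221 cells led by Cxcl3 and Arg1 occurred in the cKO arch alone and held the highest Mmp19 level of any cluster and library tabulated, 316.5 CPM on 531 UMIs, with Mmp14 at 81.1 CPM.

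**Figure D4:**
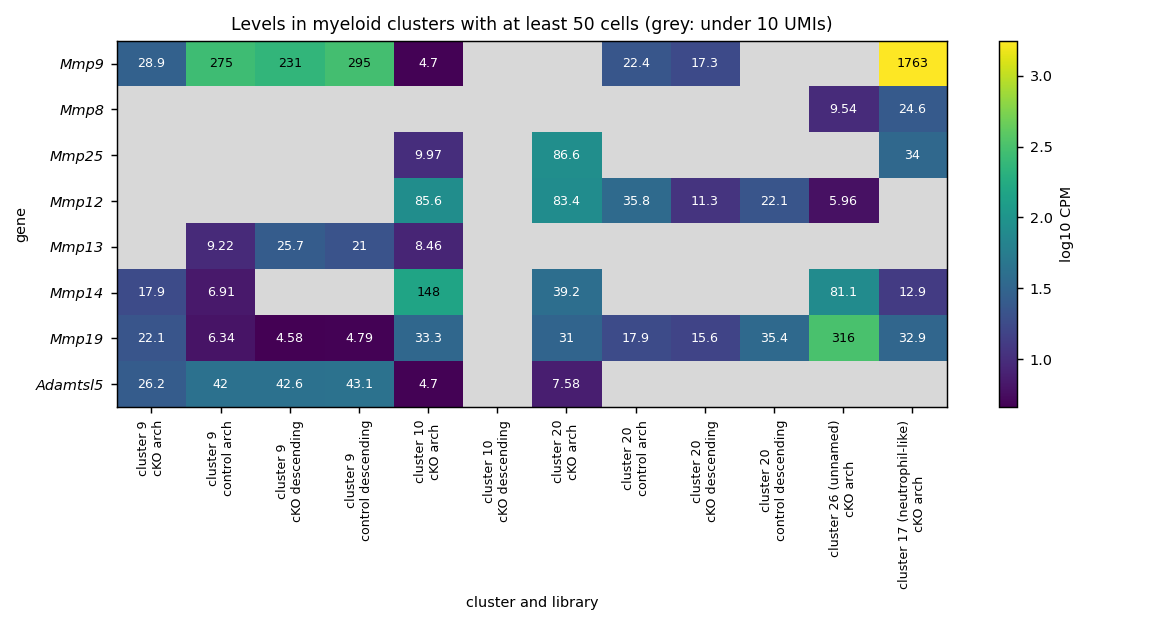
Levels in CPM of Mmp9, Mmp8, Mmp25, Mmp12, Mmp13, Mmp14, Mmp19 and Adamtsl5 in the phagocyte-like clusters 9 (Folr2), 10 (Ccl12) and 20 (Cd209a), the Cxcl3 and Arg1 cluster (26) and the neutrophil-like cluster (17), for each library with at least 50 cells; grey cells had under 10 UMIs. Mmp9 is highest in the neutrophil-like cells of the cKO arch at 1763 CPM and Mmp19 in the Cxcl3 and Arg1 cluster at 316.5 CPM.

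The cKO arch also held an unnamed cluster of 1103 cells led by Spp1 and Tnfrsf11b, of which the other libraries had 19 (control arch), 5 (cKO descending aorta) and 1 (control descending aorta). It expressed both fibroblast and smooth muscle markers and so fell into neither class. Its 6 highest members were Mmp2 at 479 CPM, Mmp3 at 423 CPM, Mmp14 at 215 CPM, Adamts1 at 189 CPM, Mmp23 at 169 CPM and Adamts2 at 152 CPM. Its 5713 UMIs were most of the Mmp3 in that library.

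Against smooth muscle-like cells of the same library 25 members were measured, and 13 were higher and 1 lower in this cluster, beside 16.8% of all measured genes, with medians of 1.05 over the members and 0.06 over all genes. Mmp2 (28.1 CPM in smooth muscle-like cells, log2 ratio 4.09), Adamtsl2 (22.3 against 1.73 CPM, 3.66), Mmp19 (9.41 against 0.95 CPM, 3.25), Adamtsl1 (2.98), Mmp3 (2.56), Adamts4 (2.51) and Mmp14 (2.09) were among the higher. The lower one was Mmp17, at 6.45 against 48.2 CPM (-2.90). Against fibroblast-like cells 26 were measured, and 3 were higher and 5 lower, beside 15.1% of all genes. The higher ones were Mmp13, Adamts8 (18.1 against 5.67 CPM, 1.63) and Mmp28, whose interval includes 0, and the lower ones were Mmp19 (-1.84), Adamts15 (-1.67), Adamts2 (-1.10), Adamtsl1 (-1.09) and Adamtsl4 (-2.32).

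Mmp13 in this cluster had 181 UMIs at 13.4 CPM, against 2 UMIs in smooth muscle-like and 0 UMIs in fibroblast-like cells of that library. They lay in 12 cells, 1 of which held 60, so a few cells set this level. By level the cluster stood below fibroblast-like cells for both Mmp2 (log2 ratio -0.82) and Mmp3 (-0.83). For both genes it was nearer to fibroblast-like than to smooth muscle-like cells (4.09 and 2.56).

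**Figure D5:**
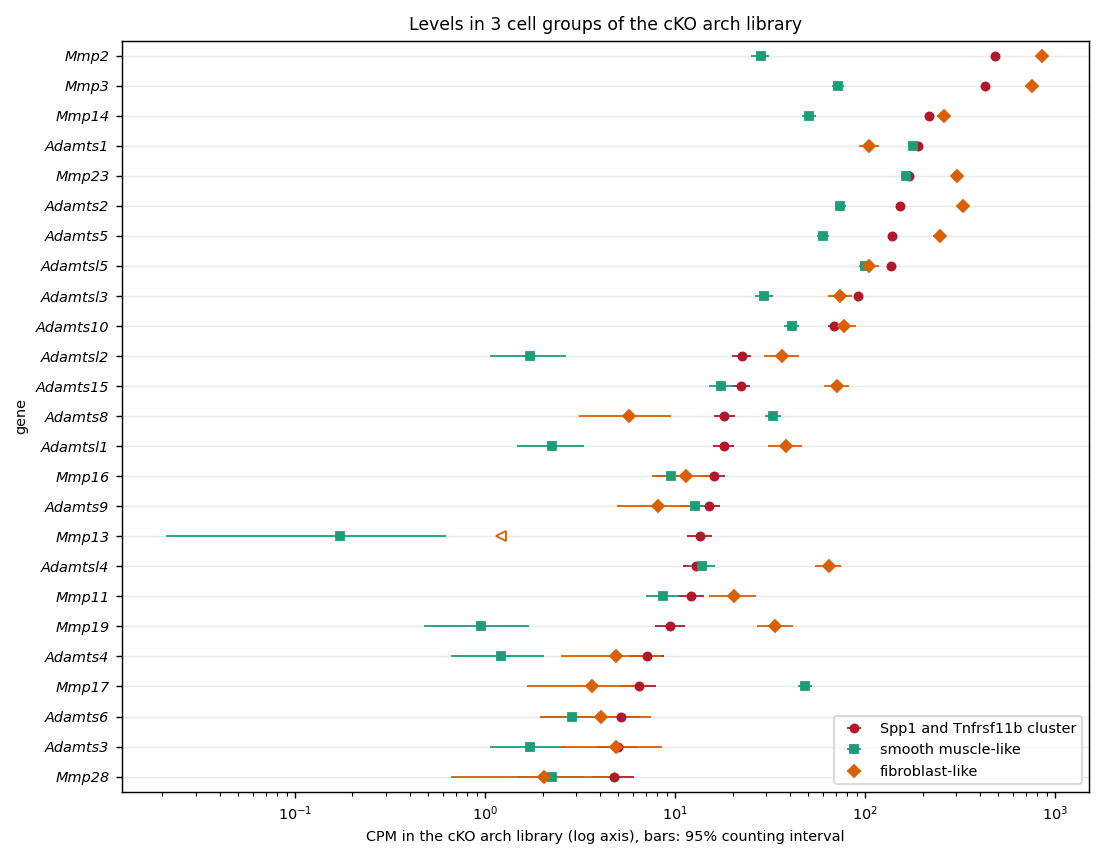
Levels in CPM, on a log axis, of members with at least 50 UMIs in the Spp1 and Tnfrsf11b cluster of the cKO arch, beside smooth muscle-like and fibroblast-like cells of the same library; bars are 95% counting intervals and the open triangle marks 0 UMIs, drawn at the level of 3 UMIs. Mmp2 stands at 479 CPM in the cluster, 28.1 CPM in smooth muscle-like and 848 CPM in fibroblast-like cells.

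Unnamed clusters with smooth muscle markers carried their own members. A cluster led by Msx2 and Frzb, 611 cells of the control arch, had Adamtsl1 at 310.1 CPM against 4.97 CPM in smooth muscle-like cells of that library, a log2 ratio of 5.96 (interval 5.77 to 6.16). Adamtsl2 was at 19.1 against 0.84 CPM, Mmp2 at 251 against 34.7 CPM and Adamts4 at 19.2 against 4.07 CPM. Adamts5 was lower there, at 11.4 against 47.3 CPM, as were Adamts8 (2.59 against 15.0 CPM) and Adamts15 (7.12 against 26.6 CPM).

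A cluster led by Olfr78 and Olfr558 had 76 cells in the control arch, 208 in the cKO descending aorta and 118 in the control descending aorta. Adamtsl1 was at 164 CPM there in the control arch, 150.2 CPM in the cKO descending aorta and 182 CPM in the control descending aorta. Adamts5 was at 167, 186 and 272 CPM in the same order, and Adamts15 at 89.9, 78.2 and 84.7 CPM. Adamts14 was at 17.65, 18.56 and 17.36 CPM on 11, 33 and 17 UMIs, above the T cell-like levels of 6.52, 7.22 and 7.82 CPM. Mmp23, abundant in other smooth muscle, was at 9.63, 0.56 and 2.04 CPM, on 6, 1 and 2 UMIs. Adamtsl1 was therefore high in both of these clusters while smooth muscle-like cells of the same libraries had at most 4.97 CPM.

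A transcript listed as RFP was counted in the cKO arch, and cells with at least 16 of its UMIs (high) were compared with those under 8 (low). In smooth muscle-like cells, 278 high and 613 low, 1 member was higher and none lower, beside 2.07% of all measured genes: Adamts5, at 131 CPM in high and 34.9 CPM in low cells, log2 ratio 1.91 (interval 1.68 to 2.14). In the Spp1 cluster, 426 high and 587 low, 4 were higher and none lower, beside 2.49% of all genes. These were Mmp3 (681 against 205 CPM, 1.73), Adamts5 (228 against 73.0 CPM, 1.64), Adamts15 (35.5 against 13.5 CPM, 1.39) and Adamts4 (10.2 against 4.99 CPM, 1.02). In fibroblast-like cells, 79 high and 209 low, Mmp14 (432 against 169 CPM, 1.35), Adamtsl2 (53.3 against 25.7 CPM, 1.05) and Mmp2 (1268 against 621 CPM, 1.03) were higher and none lower, beside 2.85% of all genes. With all cells of at least 8 RFP UMIs taken as high, some of these calls were lost. Then 1, 3 and 2 members were higher in the same order of cells and none lower, beside 1.03%, 1.88% and 2.35% of all genes.

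Inhibitors, activators and substrates of these enzymes were read from a list of 29 genes chosen by role. In smooth muscle-like cells of the arch 25 were measured, and 5 were higher and none lower in the cKO, beside 10.6% of all measured genes called in either direction, with a median log2 ratio of 0.21. They were Timp1, an inhibitor of secreted Mmp enzymes (64.1 against 22.6 CPM, 1.51), the plasminogen activators Plau (1.45) and Plat (47.0 against 16.0 CPM, 1.56), and the substrates Acan (79.6 against 25.8 CPM, 1.63) and Comp (118 against 12.4 CPM, 3.25). In fibroblast-like cells of the arch 25 were measured, and 2 were higher and 6 lower, beside 12.0% of all genes. Timp1 (924 against 199 CPM, 2.22) and Comp (1.06) were higher, and Eln (378 against 1676 CPM, -2.15), Fbn2, Plau, Pcsk6, Papln and Timp4 lower. In endothelial-like cells Timp1 was the 1 higher gene of 21 measured, at 100.4 against 17.8 CPM, with none lower, beside 7.87% of all genes. In phagocyte-like cells 6 were higher and 2 lower of 19, beside 16.8% of all genes, with Timp1 among the higher at 65.6 against 1.17 CPM. Timp1 and Comp were also among the 10 leading genes of the Spp1 cluster. In the cKO arch the Timp1 levels of 64.1, 100.4 and 65.6 CPM stood beside 924 CPM in fibroblast-like cells. The part of free RNA in those lower levels was not tested.

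In the descending aorta Eln, elastin, was the 1 lower gene of 25 measured in smooth muscle-like cells, at 2207 CPM in the cKO and 4652 CPM in the control (-1.08), with none higher, beside 1.27% of all genes. In fibroblast-like cells Timp4 was higher and Eln lower (368 against 911 CPM, -1.31) of 24 measured, beside 1.25% of all genes. In endothelial-like cells none of 22 was called, beside 2.78% of all genes, and in phagocyte-like cells Plaur and Ltbp1 were lower of 16, beside 3.77%. Timp1 and Mmp3 were thus both higher in smooth muscle-like and fibroblast-like cells of the cKO arch, whereas in the descending aorta Mmp3 was higher in fibroblast-like cells and Timp1 was not called. The part of free RNA in the smooth muscle-like Timp1 level was not tested.

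Between regions, 5 of 25 list genes were higher and none lower in smooth muscle-like cells of the cKO arch, beside 9.53% of all genes, and 3 of 25 were lower and none higher in those of the control arch, beside 5.57%. In fibroblast-like cells 3 were higher and 4 lower of 23 in the cKO, beside 11.1% of all genes, and 3 higher and 2 lower of 25 in the control, beside 7.67%. In endothelial-like cells 9 were higher and 1 lower of 24 in the cKO, beside 11.7% of all genes, and 10 higher and 2 lower of 23 in the control, beside 10.5%. Fibroblast markers in these endothelial-like cells were also higher in the arch, at 827 against 290.5 CPM in the cKO and 942 against 305 CPM in the control, and their part was not tested. In phagocyte-like cells 9 were higher and none lower of 19 in the cKO, beside 17.5% of all genes, and 7 higher and 2 lower of 16 in the control, beside 5.91%.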

How the data were processed

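The authors deposited UMI counts per gene and cell barcode, made with Cell Ranger 6.1.1 on mm10 per the submitters' processing notes; the matrix headers name version 6.1.2. For the gene annotation, no release was given in the sources used here. Feature lists hold 28693 entries for the cKO arch and 32285 for each of the other 3 libraries; 27734 identifiers are shared, and 1228 of these carry another symbol, none of them a member. Barcodes with at least 500 genes and under 10% mitochondrial UMIs were kept. The top 0.8% per 1000 cells by Scrublet score were removed as doublets, because the automatic threshold marked only 0.086% of the cKO arch. Cells were clustered with scanpy 1.11.5 without the 46 members (3000 variable genes, 40 principal components, 15 neighbours, Leiden resolution 1). A cluster was named where its best marker class scored at least 1.5, with at least 3 markers detected and no contrary leading genes. Where another class came within 1.5 of the best, the class with most markers among the 10 leading genes was taken, with at least 3 needed to replace the best (as for the thymocyte-like cluster), macrophage, monocyte and dendritic classes were joined, and other such clusters stayed unnamed. Counts were summed per class and library and scaled to CPM. Ratios used a prior of 0.5 UMI and an exact conditional 95% interval. A call needed at least 2-fold and 50 UMIs, in classes with at least 50 cells in both libraries. Shares were also computed after thinning cells to 3000 UMIs. The call rule was also run on counts simulated from smooth muscle-like levels with counting error only. That simulation cannot speak to differences between replicate libraries. The analysis used Python 3.11.15 with numpy 2.4.6, scipy 1.17.1, pandas 2.3.3 and matplotlib 3.10.9.

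Values were given for the 2 highest members of each of 6 classes, the 10 furthest from 0 in each smooth muscle comparison, the 5 furthest in the other classes compared, and the 6 highest in the Spp1 cluster; the other members named were chosen by role after their values were seen. The members and gene lists were chosen with earlier results of these data known, and the gap for naming clusters was set after clusters were seen. A gene of the list of inhibitors, activators and substrates is not reported here. Alternatives tried were median-of-ratios scaling, minimums of 20 and 100 UMIs, a 1.5-fold limit, stricter cell filters (1000 genes, 5% mitochondrial), no doublet removal, Leiden resolution 0.5, the single largest cluster of a class and no thinning. RFP limits were also tried at 8 UMIs. Leaving out the cell with the most UMIs of a member was added after seeing the data.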

Additional observations from a re-analysis of the deposited data

Results flagged for a closer look

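For 7 members the counting intervals of the cKO to control ratio lay on opposite sides of 0 in the 2 regions of a class, and 4 of these also differed at least 2-fold in a region; each group was 1 library, and the differences were not tested. Adamts8 in smooth muscle-like cells had a log2 ratio of cKO to control of 1.13 for the arch and -0.20 for the descending aorta, a difference of 1.33, and the arch value was 0.98 with stricter cell filters and 0.72 in the single largest cluster. Mmp28 in endothelial-like cells had -1.58 and 0.42 (arch, then descending), a difference of -2.01, on 9 UMIs in the cKO arch. Adamtsl4 in endothelial-like cells had -1.40 and 1.07, a difference of -2.46, on 5 UMIs in the cKO arch. Its levels in both descending libraries were under 10% of the leading class by UMIs per cell. Mmp12 in phagocyte-like cells had 0.74 and -1.66, a difference of 2.40, and 1 cell held over 50% of its control UMIs in each region. The other 3 stayed under 2-fold in both regions (arch, then descending): Adamts5 in smooth muscle-like cells with 0.34 and -0.49, Adamtsl3 in fibroblast-like cells with -0.85 and 0.26, and Adamts10 in endothelial-like cells with -0.37 and 0.37.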

How the results depend on the processing

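No paired analysis was possible because the labels give no replicate numbers and each group is 1 library. Leaving out replicates was not possible for the same reason. The count of members called in smooth muscle-like cells of the descending aorta, cKO against control, was 1; it was 0 with median-of-ratios scaling, 3 at 20 UMIs, 2 at 1.5-fold and 2 at Leiden resolution 0.5. Arch against descending aorta the control count of 4 became 9 at 1.5-fold, and the cKO count of 7 became 4 at 100 UMIs, 13 at 1.5-fold, 11 with no doublets removed and 2 in the single largest cluster. The arch cKO against control smooth muscle count of 9 stayed within 1.5 times under each alternative run. With no doublets removed the arch count was 6 in place of 3 in endothelial-like cells and 13 in place of 7 in phagocyte-like cells. Without thinning, the share of cells with a UMI of Mmp3 was 12.3% in smooth muscle-like cells of the cKO arch and 1.19% in those of the cKO descending aorta, where thinned shares were 7.14% and 0.52%; in descending fibroblast-like cells it was 13.1% in the cKO and 6.29% in the control. Adamtsl1 in arch smooth muscle-like cells (-1.12) was reversed to 0.15 with stricter cell filters and to 1.48 in the single largest cluster. In that comparison Adamts8 was 0.98 with stricter filters and 0.72 in the single largest cluster, and Adamtsl2 was 0.91 without its top cell, an alternative chosen after seeing the data. Mmp2 in descending smooth muscle-like cells was -0.99 with median-of-ratios scaling. Where not stated, the cause was not tested. That scaling moved the median of all genes by 0.14 in arch phagocyte-like cells, by 0.13 in control and 0.16 in cKO smooth muscle-like cells between regions, and by 0.12 in cKO phagocyte-like cells between regions. The single largest cluster gave no value for arch phagocyte-like, control smooth muscle-like between regions, or cKO endothelial-like cells between regions. Depth limits small classes, such as the 145 endothelial-like and 56 lymphatic endothelial-like cells of the cKO arch and the 129 T cell-like cells of the control arch.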
